A study of Mus musculus with 6 samples.

Results

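The mitosis and spindle genes are 46 genes chosen by name for their roles in chromosome segregation and cell division. They were chosen with earlier results of these data known. Where a symbol names several Gene IDs, the rule takes the one with the highest mean TPM. All 46 were found by symbol among the 53700 genes listed for mouse SL4 CRC cells, and all 46 were tested. A dividing cell enters mitosis when CDK1 bound to cyclin B becomes active, builds a spindle that attaches to each chromosome through its kinetochore, and waits for every attachment under the spindle checkpoint. The anaphase-promoting complex then marks cyclin B and securin for destruction, separase cuts the cohesin that holds sister chromatids together, and the midzone directs cytokinesis. Many of these genes are transcribed late in the cell cycle and repressed in resting cells, and their mRNA is widely used as a measure of proliferation in tumors.

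SL4 is a luciferase-expressing mouse CRC cell line. RNA-seq libraries were made from control SL4 cells (n = 3), without SEMA6A overexpression, and from pLV-SEMA6A cells (n = 3), SL4 cells that stably overexpress SEMA6A from a lentivirus. SEMA6A is a transmembrane semaphorin, and the comparison asks how its overexpression changes the transcriptome of the tumor cells. The sources name the control in 2 ways, as SL4 in the methods and labels and as pLV-Control, a vector line, where the RNA-seq comparison is described. They describe 1 pLV-SEMA6A line and do not say whether replicates came from separate cultures, so p-values may measure technical spread only, and SEMA6A overexpression and a difference between lines cannot be told apart.

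Expression was deposited as TPM, which corrects for transcript length and sets each library to the same nominal total, so that levels can be compared between genes but the number of reads behind them is unknown. Sema6a was listed at 0 throughout control, against 98.7, 118 and 112 TPM under overexpression, as the labels state. Between 19340 and 19463 genes were above 0 in control and between 18798 and 18887 in pLV-SEMA6A. The pLV-SEMA6A replicate 2 library stood apart at mt-Co3, a mitochondrial gene, with 0.33 TPM against 140.6 to 450.1 TPM in the other libraries. Of 11 epithelial and colon markers, 10 were below 1 TPM in every library, and Epcam, Cdx1 and Cdx2 were listed at 0 throughout. The summed level of 7 fibroblast markers was 125 to 141 TPM in control and 183 to 189 TPM in pLV-SEMA6A. Most of each sum was Col3a1, at 110 to 125 TPM in control and 168 to 176 TPM in pLV-SEMA6A. Col3a1 and Col1a1 were higher, Pdgfra and Pdgfrb were lower, and none of the 7 was at 0 in every library. The part of the difference in this sum in the results below was not tested. The 7 leukocyte markers summed to at most 2.53 TPM and the 4 endothelial markers to at most 0.54 TPM in any library.

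The mitosis and spindle genes were well expressed in both groups. Every member was at or above 1 TPM in every library, and 45 of the 46 had a mean of at least 10 TPM. The median member had a mean of 45.3 TPM, above 74.4% of the genes tested. Cdk1 was the most abundant at a mean of 244 TPM over the 6 libraries, followed by Ube2c at 195 TPM and Top2a at 167 TPM. Kif14 was the least abundant at 5.03 TPM, and Kif18a and Ttk followed at 10.2 and 13.7 TPM. In bulk RNA, more cells in mitosis and more of an mRNA in each of those cells cannot be told apart. The paper reports reduced proliferation of pLV-SEMA6A cells by CCK-8 assay, and weaker staining for the protein PCNA in tumors grown from them. Those are measures other than mRNA, and the relation of the values below to proliferation was not tested.

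In pLV-SEMA6A, 20 of the 46 members were higher at an adjusted p under 0.05 (limma on log2(TPM + 1), Benjamini-Hochberg over 12510 genes), 3 were lower and 23 did not pass. Among all genes tested, 19.5% were higher and 28.2% lower by the same rule. After centring each library on its median, that split became 26.9% higher and 19.8% lower, with 27 members higher and 1 lower. Without pLV-SEMA6A replicate 2, the library low in mt-Co3, 17 members were higher and 2 lower, beside 16.8% and 25.1% of all genes tested. The lowest count of higher members in any alternative analysis was 15, without pLV-SEMA6A replicate 1, beside 16.7% of all genes tested. The median member log2 fold change was 0.10, with a range from −1.19 to 0.74, beside −0.06 over all genes tested. A total of 35 members lay above 0 and 11 below. Most of the differences were small. With the additional requirement of an absolute log2 fold change over 0.5, by which a gene is called a differentially expressed gene (DEG) here, 4 members were higher (Ndc80, Spc24, Nuf2 and Kif4) and 1 was lower (Pttg1), beside 5.12% and 10.8% of all genes tested. This criterion is the one the supplement states for limma comparisons, and the supplement states no fold threshold for the RNA-seq of these cells.

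Counted by libraries alone, all 3 pLV-SEMA6A values lay above all 3 control values in 21 members and below them in 2, and the groups overlapped in 23. This separation was found upward in 23.8% and downward in 34.7% of all genes tested. The 21 comprised the 20 members that passed upward and Cenpa, and the 2 were Pttg1 and Bub1. Summed over the 46 members, the level was 2679, 2666 and 2688 TPM in the control libraries, against 3021, 3031 and 3018.5 TPM under SEMA6A overexpression. The members' mean log2 deviation from their own averages was −0.06, −0.07 and −0.06 in control and 0.07, 0.07 and 0.04 in pLV-SEMA6A. Each pLV-SEMA6A library lay above each control library by both measures, and no library was the highest of its group for more than 18 of the 46 members.

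**Figure D1:**
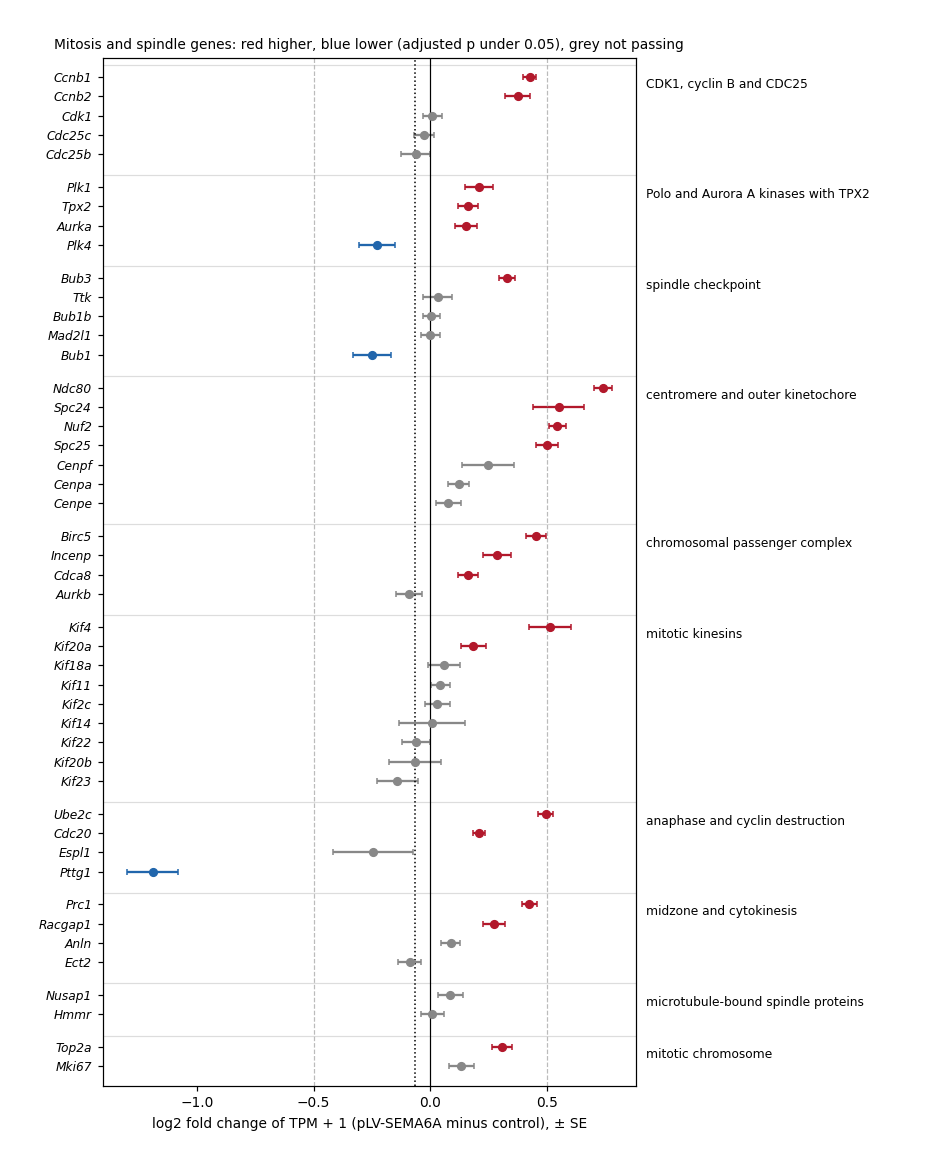
Log2 fold change of TPM + 1 (pLV-SEMA6A minus control, ± SE, n = 3 libraries per group) for the 46 members, grouped by role, with red for higher, blue for lower and grey for not passing at an adjusted p under 0.05. Dashed lines mark 0.5 in each direction and the dotted line the median of all genes tested (−0.06). The 4 NDC80 complex genes lie between 0.4993 and 0.74, and Pttg1 lies apart from the others at −1.19.

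Mitotic entry is driven by CDK1, its cyclin B partners, and the CDC25 phosphatases that remove its inhibitory phosphates. Both cyclin B genes rose, while the kinase itself showed no difference that passed. Ccnb1 was at 86.3, 87.1 and 84.5 TPM in control and 116, 117 and 114 TPM in pLV-SEMA6A. The groups were well separated, with a log2 fold change of 0.43 (SE 0.03, limma adjusted p = 5.91e-05). Ccnb2 moved alike, from 43.4 ± 3.02 to 56.5 ± 0.781 TPM (SD, n = 3 each), and its log2 fold change was 0.37. Cdk1 was at 243, 243 and 243 TPM in control and 229, 252 and 254 TPM in pLV-SEMA6A. Its pLV-SEMA6A values fell on either side of the control values, with a log2 fold change of 0.01 (SE 0.04, limma adjusted p = 0.877). Within each library, Ccnb1 amounted to 0.353 ± 0.00555 of Cdk1 in control and 0.474 ± 0.0277 in pLV-SEMA6A (SD, n = 3 each), without overlap. This ratio, like the other ratios between members given here, was chosen after the values were seen. Cdc25b was at 34.9, 31.5 and 36.5 TPM in control and 33.8, 32.7 and 31.7 TPM in pLV-SEMA6A, with overlapping groups and a log2 fold change of −0.06. Cdc25c had a log2 fold change of −0.03, and neither phosphatase passed.

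Promoters of mitotic genes typically carry the cell cycle genes homology region (CHR), which recruits the DREAM and MuvB-containing complexes, together with CCAAT boxes bound by NF-Y. These letters were searched on both strands, as TTTGAA for the CHR, TTTAAA for a CHR variant, CCAAT, and TTTCGCGC or TTTGGCGC for an E2F site. The sequences below are the 250 bases before the RefSeq start of Ccnb1 and Cdk1 (GRCm38.p6), shown because one gene rose and its partner did not pass, with matches to these letters in capitals (ATTGG and TTCAAA are CCAAT and the CHR on the other strand). Both windows lie on the minus strand, at chr13:100786487-100786736 and chr10:69352913-69353162.
Ccnb1: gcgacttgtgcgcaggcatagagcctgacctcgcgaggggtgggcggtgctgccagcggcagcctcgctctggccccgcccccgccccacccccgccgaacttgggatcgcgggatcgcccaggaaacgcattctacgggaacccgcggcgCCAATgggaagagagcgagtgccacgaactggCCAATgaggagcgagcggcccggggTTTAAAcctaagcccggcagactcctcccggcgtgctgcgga
Cdk1: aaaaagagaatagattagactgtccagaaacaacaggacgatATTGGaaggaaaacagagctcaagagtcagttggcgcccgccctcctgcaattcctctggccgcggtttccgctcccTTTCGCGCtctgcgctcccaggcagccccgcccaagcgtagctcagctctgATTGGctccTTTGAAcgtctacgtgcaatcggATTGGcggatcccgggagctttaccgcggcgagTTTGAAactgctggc
The Ccnb1 stretch held CCAAT boxes at −99 and −67 from the start and a CHR variant at −42. The Cdk1 stretch held CCAAT at −208, −80 and −48, CHR letters at −71 and −15, and an E2F match at −131. Both stretches held CCAAT boxes, while the CHR letters were found in that of Cdk1 and the variant in that of Ccnb1. A match by letters is no measure of binding.

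The Polo and Aurora A kinases mature centrosomes and assemble the spindle poles, with TPX2 as the protein that activates Aurora A on microtubules. Plk1, Aurka and Tpx2 rose by a little, and Plk4, the kinase that starts centriole duplication, fell by a little. Plk1 was at 42.5, 45.9 and 39.2 TPM in control and 49.9, 49.9 and 47.7 TPM in pLV-SEMA6A. Its groups did not overlap, and its log2 fold change was 0.21 (SE 0.06, limma adjusted p = 0.0303). Aurka reached 0.15 and Tpx2 0.16 on the same scale. Plk4 was at 73.7, 67.0 and 73.4 TPM in control and 55.9, 67.6 and 59.1 TPM in pLV-SEMA6A. Its groups overlapped, since pLV-SEMA6A replicate 2 lay above the lowest control library, and its log2 fold change was −0.23 (SE 0.08, limma adjusted p = 0.0479). These 4 calls were close to the threshold. Plk1 lost it on leaving out any library except control replicate 2 (limma adjusted p up to 0.0829), Aurka on leaving out any except control replicate 1 (up to 0.0982), and Tpx2 without control replicate 1 or 2 or pLV-SEMA6A replicate 1 or 3 (up to 0.0722). Plk4 lost it without control replicate 1 or 3 or pLV-SEMA6A replicate 1 or 3 (up to 0.126), and after median centring, where its log2 fold change was −0.14 (limma adjusted p = 0.18). Without the filter on low values Plk1, Aurka and Plk4 lost their calls too, and without the trend option Aurka and Plk4 did.

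The spindle checkpoint holds the anaphase-promoting complex inactive until all kinetochores are attached. Its 5 members did not move as a group, with 1 higher, 1 lower and 3 at log2 fold changes of at most 0.03. Bub3, the WD40 protein that brings BUB1 and BUBR1 to kinetochores, was at 108, 105 and 102 TPM in control and 135, 132 and 130 TPM in pLV-SEMA6A. Each pLV-SEMA6A library was above each control library, and the log2 fold change was 0.33 (SE 0.03, limma adjusted p = 3.66e-04). Bub1, the kinase that BUB3 recruits, was at 28.6, 31.6 and 29.9 TPM in control and 28.2, 23.2 and 24.1 TPM in pLV-SEMA6A. The groups did not overlap but nearly touched, with a log2 fold change of −0.25 (SE 0.08, limma adjusted p = 0.0411), and the call was lost on leaving out any library except pLV-SEMA6A replicate 1 (up to 0.119). It was also lost after median centring (log2 fold change −0.16, limma adjusted p = 0.158), after quantile normalization (−0.188, limma adjusted p = 0.107), without the filter on low values and without the trend option. Bub1b, which encodes BUBR1, Mad2l1, which encodes MAD2, and Ttk, which encodes the MPS1 kinase, differed by less than the spread between replicates. Mad2l1, for example, was at 62.4 ± 1.49 TPM in control against 62.4 ± 2.81 TPM in pLV-SEMA6A (SD, n = 3 each).

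The NDC80 complex is the 4-subunit rod of the outer kinetochore that grips microtubules. All 4 subunits were higher, with 4 of the 5 largest rises among the members, and all 4 stayed past the threshold in all 13 alternative analyses. Ndc80 was at 24.9, 24.5 and 25.6 TPM in control and 43.0, 42.3 and 41.8 TPM in pLV-SEMA6A. This was a 1.70-fold difference and the largest rise among the members, with a log2 fold change of 0.74 (SE 0.04, limma adjusted p = 2.55e-05). Nuf2, which pairs with NDC80 at the microtubule-binding end, was at 30.5, 31.1 and 32.3 TPM in control and 46.3, 45.7 and 46.3 TPM in pLV-SEMA6A, separated at a log2 fold change of 0.54 (SE 0.04, limma adjusted p = 7.42e-05). Spc24, of the end that faces the chromosome, was at 46.5, 42.0 and 43.0 TPM in control and 65.5, 55.1 and 74.6 TPM in pLV-SEMA6A. Its pLV-SEMA6A libraries were more spread than those of the other subunits, and its log2 fold change of 0.55 (SE 0.11, limma adjusted p = 0.00638) was 0.45 without pLV-SEMA6A replicate 3. Spc25, the partner of SPC24, was at 26.1, 28.2 and 28.4 TPM in control and 38.0, 40.1 and 39.97 TPM in pLV-SEMA6A. Its log2 fold change of 0.4993 (SE 0.05) lay just under the DEG criterion.

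Together the 4 NDC80 complex genes summed to 128 ± 1.73 TPM in control against 193 ± 9.76 TPM in pLV-SEMA6A (SD, n = 3 each). Their proportions shifted little by comparison. Ndc80 amounted to 0.798 ± 0.0154 of Nuf2 in control and 0.919 ± 0.0146 in pLV-SEMA6A, without overlap, and Spc24 to 1.596 ± 0.163 and 1.65 ± 0.252 of Spc25, with overlap (SD, n = 3 each). The remaining centromere members did not pass. Cenpe, a kinetochore motor, was at 42.0, 42.6 and 46.2 TPM in control and 48.4, 45.3 and 44.3 TPM in pLV-SEMA6A, with overlapping groups and a log2 fold change of 0.08 (limma adjusted p = 0.286). Cenpa, the histone variant that marks the centromere, had separated groups and a log2 fold change of 0.12 (limma adjusted p = 0.0646), and Cenpf had overlapping groups and 0.25 (limma adjusted p = 0.1096). After median centring all 3 passed, at 0.22, 0.17 and 0.34 for Cenpa, Cenpe and Cenpf.

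**Figure D2:**
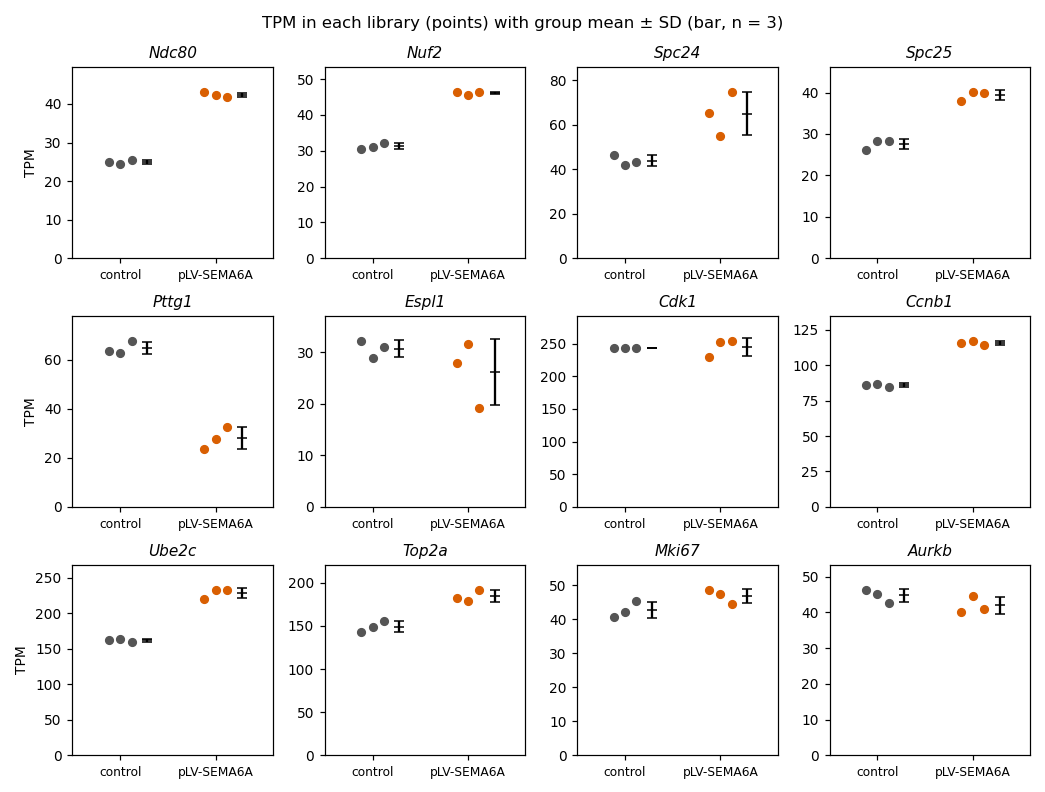
TPM of 12 members in each library (points, control in grey and pLV-SEMA6A in orange), with the group mean ± SD (bar, n = 3) beside them, on linear axes that start at 0. The NDC80 complex genes Ndc80, Nuf2, Spc24 and Spc25 are higher and Pttg1 is lower in all 3 pLV-SEMA6A libraries, Cdk1 and Espl1 overlap, and the last panel shows Aurkb between 40.2 and 46.4 TPM.

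The promoter windows of 2 subunits of this complex differed in their letters although both genes rose. They are shown for comparison, again as the 250 bases before the start on GRCm38.p6, both on the minus strand, at chr2:69206214-69206463 for Spc25 and chr1:169531465-169531714 for Nuf2.
Spc25: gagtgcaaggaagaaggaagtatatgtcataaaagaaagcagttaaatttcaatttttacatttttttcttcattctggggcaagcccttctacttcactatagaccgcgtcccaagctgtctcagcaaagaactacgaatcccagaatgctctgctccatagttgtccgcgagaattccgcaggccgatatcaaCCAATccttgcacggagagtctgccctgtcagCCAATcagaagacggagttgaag
Nuf2: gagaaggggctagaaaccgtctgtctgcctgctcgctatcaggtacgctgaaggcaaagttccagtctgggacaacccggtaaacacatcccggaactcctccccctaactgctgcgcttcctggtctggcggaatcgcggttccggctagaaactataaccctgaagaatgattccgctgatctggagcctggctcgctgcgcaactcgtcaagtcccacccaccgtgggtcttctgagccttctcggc
Spc25 held CCAAT at −55 and −23, and a CHR at 25 bases past the start, outside the stretch printed. Nuf2 held none of the letters searched in its whole window of 300 bases. Ndc80 held no match before its start, and a CHR variant and a CHR at 23 and 30 bases past it. Spc24 had no entry among the windows.

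The chromosomal passenger complex corrects faulty attachments and moves to the midzone in anaphase. It joins the kinase AURKB to INCENP, survivin (Birc5) and borealin (Cdca8). Its 3 non-catalytic subunits rose and its kinase did not pass. Birc5 was at 73.4, 75.5 and 73.0 TPM in control and 103, 96.0 and 106 TPM in pLV-SEMA6A, a separated rise with a log2 fold change of 0.45 (SE 0.04, limma adjusted p = 3.07e-04). Incenp rose by 0.29 and Cdca8 by 0.16 on the log2 scale, although Cdca8 lost its call without pLV-SEMA6A replicate 1 or 2 (limma adjusted p up to 0.0583) and after quantile normalization (0.109, limma adjusted p = 0.0743). Aurkb was at 46.4, 45.2 and 42.7 TPM in control and 40.2, 44.7 and 41.0 TPM in pLV-SEMA6A. Its groups overlapped, with a log2 fold change of −0.09 (SE 0.05, limma adjusted p = 0.209). Within libraries, Aurkb amounted to 0.605 ± 0.0241 of Birc5 in control and 0.414 ± 0.0450 in pLV-SEMA6A (SD, n = 3 each), without overlap.

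Mitotic kinesins slide, depolymerize or carry cargo along spindle microtubules. Of the 9, 2 (22.2%) were higher, close to the 19.5% of all genes tested, and 7 did not pass. Kif4, a chromokinesin that also works with PRC1 to set the length of the midzone, was at 16.6, 14.2 and 13.9 TPM in control and 20.7, 20.5 and 23.7 TPM in pLV-SEMA6A. Its groups were separated, with a log2 fold change of 0.51 (SE 0.09, limma adjusted p = 0.00388) that was 0.45 without pLV-SEMA6A replicate 3. Kif20a, a kinesin of the midzone, had a log2 fold change of 0.18 and lost its call without control replicate 2 or 3 or pLV-SEMA6A replicate 1 or 3 (limma adjusted p up to 0.0853) or without the filter on low values. Kif23, a motor subunit of centralspindlin, had the lowest log2 fold change of the family at −0.14, with 40.4, 45.1 and 37.4 TPM in control and 40.7, 34.1 and 36.3 TPM in pLV-SEMA6A. Its groups overlapped (limma adjusted p = 0.232). The others were Kif11, the motor that pushes spindle poles apart, Kif18a and Kif22, which position chromosomes, the depolymerase Kif2c, and Kif14 and Kif20b, which act in cytokinesis, with log2 fold changes from −0.06 to 0.06. Of these, Kif11 passed after median centring (0.136), Kif18a after quantile normalization (0.1996) and Kif20b, as lower, without pLV-SEMA6A replicate 1 (−0.193). The 9 kinesins summed to 239 ± 8.24 TPM in control against 248 ± 8.96 TPM in pLV-SEMA6A (SD, n = 3 each), with overlap.

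Anaphase begins when CDC20 activates the anaphase-promoting complex, the enzyme UBE2C supplies it with ubiquitin, and securin (Pttg1) is destroyed so that separase (Espl1) can act. The members of this step moved in opposite directions. Ube2c was at 163, 164 and 160 TPM in control and 220, 233 and 233 TPM in pLV-SEMA6A. All 3 pLV-SEMA6A libraries were above control, with a log2 fold change of 0.49 (SE 0.03, limma adjusted p = 5.63e-05). Cdc20 also rose, from 103 ± 0.419 to 119 ± 1.88 TPM (SD, n = 3 each), and its log2 fold change was 0.21. Pttg1 was at 63.8, 62.9 and 67.7 TPM in control and 23.7, 27.7 and 32.8 TPM in pLV-SEMA6A. Its level in pLV-SEMA6A was 0.433 of that in control, a log2 fold change of −1.19 (SE 0.11, limma adjusted p = 2.79e-04). This was the largest change of any member in either direction, and in the alternative analyses it ranged from −1.30 to −1.08.

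Separase mRNA did not pass. Espl1 was at 32.2, 28.9 and 30.96 TPM in control and 28.0, 31.5 and 19.1 TPM in pLV-SEMA6A, where replicate 3 was low and replicate 2 lay inside the control range. The log2 fold change was −0.25 (SE 0.17, limma adjusted p = 0.278). The ratio of Pttg1 to Espl1 was 1.98, 2.18 and 2.19 in the control libraries and 0.848, 0.879 and 1.71 in the pLV-SEMA6A libraries. The third pLV-SEMA6A value is the library with low Espl1. Securin mRNA thus exceeded that of separase in every control library and was below it in 2 of the 3 pLV-SEMA6A libraries, on the TPM scale.

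The promoter stretches of Ube2c and Pttg1 are shown because these genes lay at opposite ends of this step. Ube2c is on the plus strand at chr2:164769679-164769928 and Pttg1 on the minus strand at chr11:43425982-43426231 (GRCm38.p6, 250 bases before the start).
Ube2c: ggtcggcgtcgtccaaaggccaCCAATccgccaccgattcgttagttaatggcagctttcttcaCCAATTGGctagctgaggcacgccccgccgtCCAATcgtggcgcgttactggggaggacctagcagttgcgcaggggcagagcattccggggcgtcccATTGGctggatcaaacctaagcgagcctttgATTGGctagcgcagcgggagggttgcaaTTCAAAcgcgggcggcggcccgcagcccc
Pttg1: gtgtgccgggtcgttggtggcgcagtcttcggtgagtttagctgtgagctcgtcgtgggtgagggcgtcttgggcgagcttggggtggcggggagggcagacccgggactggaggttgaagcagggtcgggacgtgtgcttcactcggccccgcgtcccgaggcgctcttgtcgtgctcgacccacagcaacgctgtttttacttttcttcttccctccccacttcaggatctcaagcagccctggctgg
Ube2c held 6 CCAAT matches, of which the pair at −186 and −183 overlap on opposite strands, and a CHR at −29. Pttg1 held none of the letters searched in its window of 300 bases, which covers a single RefSeq start. Other starts of Pttg1 were not searched, and the start in use in SL4 cells was not determined.

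After anaphase the midzone and the contractile ring divide the cell. Prc1, which bundles antiparallel microtubules, was at 86.9, 84.0 and 88.4 TPM in control and 119, 113 and 117 TPM in pLV-SEMA6A. The groups were separated, with a log2 fold change of 0.42 (SE 0.03, limma adjusted p = 1.44e-04). Racgap1, the centralspindlin subunit that partners KIF23, rose by 0.27 on the log2 scale. Ect2, the exchange factor that activates RhoA at the midzone, was at 82.9, 75.0 and 84.3 TPM in control and 75.3, 77.2 and 74.7 TPM in pLV-SEMA6A, with overlapping groups and a log2 fold change of −0.09 (limma adjusted p = 0.181). Without control replicate 2 it passed as lower (−0.141, limma adjusted p = 0.025). The ring scaffold Anln had a log2 fold change of 0.09 and did not pass, but it did after median centring (0.181) and without pLV-SEMA6A replicate 3 (0.125).

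The microtubule-bound proteins Nusap1 and Hmmr did not pass. Nusap1 was at 17.2, 16.0 and 17.0 TPM in control and 17.0, 18.5 and 18.0 TPM in pLV-SEMA6A, and Hmmr at 26.1, 24.4 and 26.9 TPM and 26.1, 25.3 and 26.4 TPM. Both overlapped, with log2 fold changes of 0.09 and 0.01. Nusap1 passed after median centring (0.1795) and after quantile normalization (0.181). Of the chromosome proteins, Top2a, which untangles sister DNA, was at 143, 148 and 156 TPM in control and 182, 179 and 192 TPM in pLV-SEMA6A. It rose without overlap, with a log2 fold change of 0.31 (SE 0.04, limma adjusted p = 0.00161). Mki67, which encodes the proliferation marker Ki-67, was at 40.8, 42.0 and 45.3 TPM in control and 48.8, 47.4 and 44.6 TPM in pLV-SEMA6A. Its groups overlapped, with a log2 fold change of 0.13 (SE 0.05, limma adjusted p = 0.0858), and it passed after median centring (0.23), after quantile normalization (0.17) and without control replicate 3 (0.18).

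**Figure D3:**
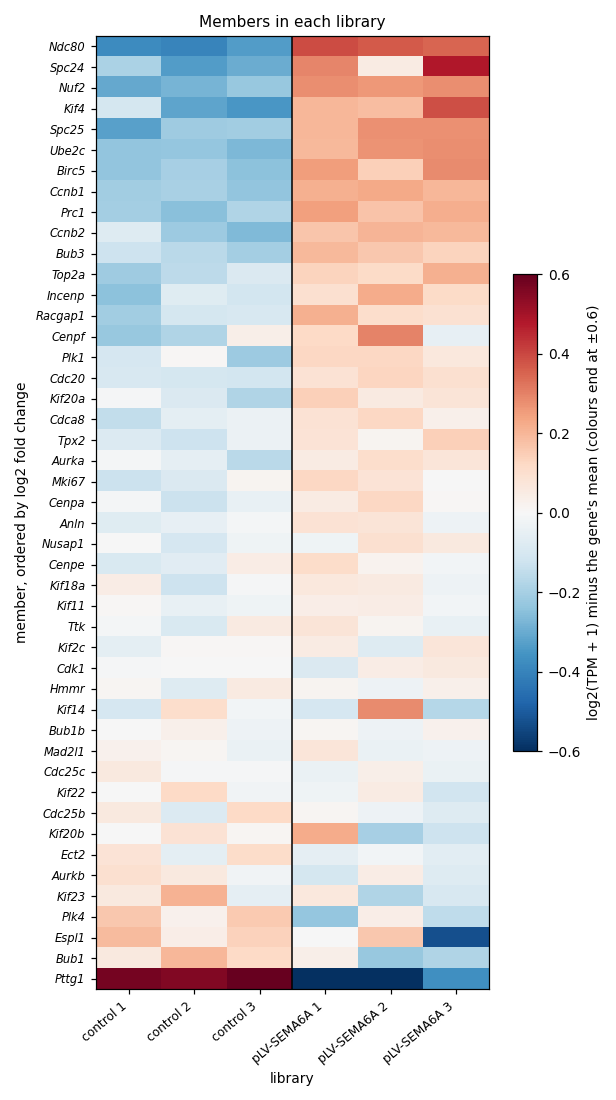
Log2(TPM + 1) of each member minus its mean over the 6 libraries, by library (columns) and ordered by log2 fold change (rows), with colours that end at ±0.6. The upper rows, from Ndc80 to Racgap1, are blue in the control and red in the pLV-SEMA6A libraries, the middle rows are pale in all 6, and Pttg1 in the bottom row is reversed.

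A total of 40 members matched 43 promoter windows, from 250 bases before to 50 after a RefSeq start (GRCm38.p6), out of 32851 windows in all. Cdc25c, Tpx2, Spc24, Aurkb, Incenp and Kif20a were not matched. Bub3, Ect2 and Prc1 each had 2 windows that overlap, so their matches are counted in both. The CHR letters were in 32 of the 43 windows (74.4%), beside 17.9% of all windows, and CCAAT was also in 32 (74.4%), beside 37.4%. At least 2 CCAAT matches were in 48.8% of the members' windows and 11.7% of all. The CHR variant was in 25.6% beside 13.2%, and an E2F match in 2 windows, those of Cdk1 and Kif18a (4.65% beside 0.813%). Among windows of members that were higher, 15 of 18 held the CHR, and among windows of members that did not pass, 17 of 22 did. The 3 windows of the members that were lower (Plk4, Bub1 and Pttg1) held no CHR letters. CCAAT was in 15 of 18, 16 of 22 and 1 of 3 windows of these groups. The start in use in SL4 cells was not determined for any gene, so these counts hold for the windows only.

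**Figure D4:**
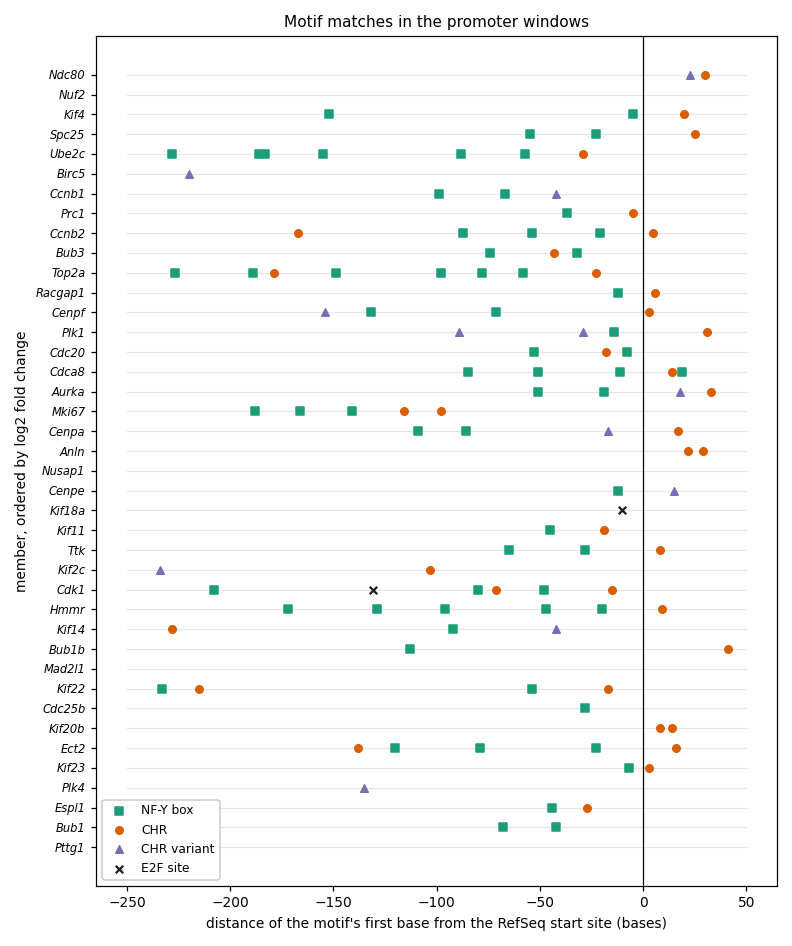
Position of each match, as the distance in bases of its first base from the RefSeq start, in the windows of the 40 matched members, ordered from the largest rise (top) to the largest fall. CCAAT matches (squares, named NF-Y box in the key) lie mostly before the start and CHR matches (circles) around it, in members that rose and in members that did not pass alike, and the rows of Nuf2, Nusap1, Mad2l1 and Pttg1 are empty.

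Other genes of mitosis, 152 in 10 lists, gave a context for the members. Of these, 150 were tested, and 46 (30.7%) were higher and 28 (18.7%) lower at an adjusted p under 0.05, beside 19.5% and 28.2% of all genes tested. Their median log2 fold change was 0.06. After median centring the counts were 62 and 13, beside 26.9% and 19.8% of all genes tested. As DEGs, 6 of the 150 were higher and 3 lower, beside 5.12% and 10.8% of all genes tested. The lists below hold 6 to 32 tested genes each, so that a few genes set each share.

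In the list of inner kinetochore and KMN network genes, 8 of 25 (32.0%) were higher and 3 (12%) lower, beside the same 19.5% and 28.2%. Cenpk, which links the inner centromere to the outer kinetochore, rose from 34.6 ± 7.48 to 60.3 ± 12.2 TPM and Pmf1, a subunit of the MIS12 complex that holds NDC80, from 89.3 ± 5.16 to 129.98 ± 7.11 TPM (SD, n = 3 each), log2 fold changes of 0.78 and 0.54. Cenpk lost its call without control replicate 1 or 2 or pLV-SEMA6A replicate 1 or 3 (limma adjusted p up to 0.0526). In the checkpoint and corona list, 3 of 9 (33.3%) were higher and none lower. Mad1l1, which encodes the kinetochore anchor of MAD2, rose from 18.3 ± 0.372 to 32.6 ± 1.40 TPM (SD, n = 3 each), and its log2 fold change was 0.80, while that of Zw10 was 0.29.

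In the G2-M transcription list, 3 of 14 (21.4%) were higher and 5 (35.7%) lower, near the 19.5% and 28.2% of all genes tested. Nfyc, which encodes an NF-Y subunit that binds CCAAT boxes, rose from 19.6 ± 2.75 to 39.3 ± 4.11 TPM, and Rbl2, which encodes the p130 pocket protein of DREAM, fell from 11.0 ± 1.17 to 6.23 ± 0.406 TPM (SD, n = 3 each), log2 fold changes of 0.97 and −0.73. Among entry and exit regulators, 5 of 15 (33.3%) were higher and 4 (26.7%) lower, with Nek2 at 0.48 and Ccnf, the F-box cyclin, at 0.45. Among subunits and inhibitors of the anaphase-promoting complex, 8 of 17 (47.1%) were higher and 4 (23.5%) lower. The scaffold Anapc1 was at −0.42 and the inhibitor Fbxo5 (EMI1) at 0.35. In the cohesin list, 5 of 14 (35.7%) were higher and 3 (21.4%) lower. The ring subunit Smc3 was at 0.57 and Cdca5, sororin, which protects it from release, at −0.52. In the condensin list 3 of 8 (37.5%) were higher and none lower, with Ncaph2 at 0.39 and Ncapg at 0.24.

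In the spindle assembly and microtubule list, 8 of 32 (25.0%) were higher and 5 (15.6%) lower, with Tacc3, a microtubule-stabilizing partner of Aurora A, at 0.57 and Ckap2 at −0.50. In the centriole and centrosome list, 3 of 10 (30.0%) were lower, near the share of all genes tested, among them Cep192, a scaffold that recruits Plk4 and Aurora A, at −0.57, and Cep152 at −0.34. Cep152 lost its call without control replicate 2 or pLV-SEMA6A replicate 1 or 3 (limma adjusted p up to 0.0713), without the filter on low values, after median centring (−0.249) and after quantile normalization (−0.165, limma adjusted p = 0.176). Cytokinesis had 3 of 6 higher and 1 lower, with Cit, a midbody kinase, at −0.43 and Pbk at 0.23. Cit lost its call without control replicate 1 or pLV-SEMA6A replicate 2 or 3 (limma adjusted p up to 0.0651), without the filter on low values and after quantile normalization (−0.290, limma adjusted p = 0.0711).

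For comparison with earlier cell cycle steps, 28 of 41 DNA replication genes were higher and 2 lower, with 9 as higher DEGs and a median log2 fold change of 0.35, beside 20 of 46 higher, 3 lower, 4 higher DEGs and a median of 0.10 for the mitosis and spindle genes. Mcm2 and Mcm5, of the replicative helicase, were at 0.78 and 0.73. Of 18 tested G1-S cyclins, CDKs, inhibitors, E2F and Myc genes, 9 were higher and 3 lower, with Ccne2 at 0.89, Mycl at −0.85 and a median of 0.09. The shares of all genes tested were 19.5% higher, 28.2% lower and 5.12% higher DEGs, with a median log2 fold change of −0.06. The difference between these lists was not tested.

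**Figure D5:**
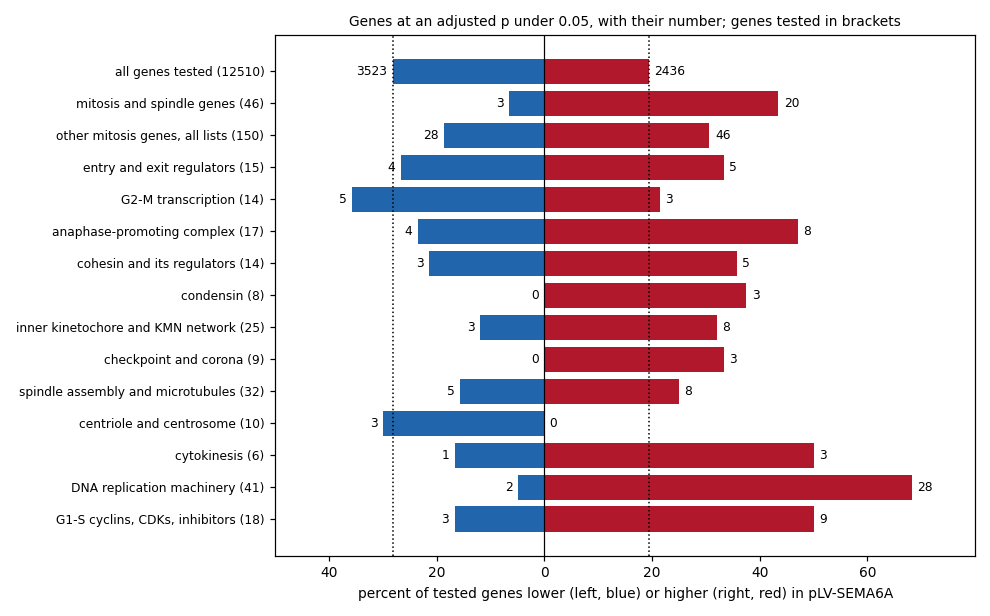
Percent of tested genes that were higher (red, right) or lower (blue, left) in pLV-SEMA6A at an adjusted p under 0.05, with the number of genes beside each bar and the number tested in brackets. Dotted lines mark the shares of all genes tested (19.5% higher and 28.2% lower). The mitosis and spindle genes stand at 20 higher and 3 lower, and DNA replication at 28 and 2.

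Reads of several members may be shared with other genes. In GENCODE M21, over 10% of the 31-base stretches of a member's transcripts also occur in another gene for 9 of the 46. Among these were Ccnb1 (27.8%, with the pseudogene Ccnb1-ps), Cdc20 (26.7%, with Gm7856), Plk1 (18.7%, with Plk-ps1) and Cdc25c (13.3%). Kif20a shared 26.7%, most often with Cdc23, and Ube2c shared 25.3%, most often with Tnnc2. Kif4 shared 15.7%, most often with Pdzd11, Prc1 12.5%, most often with Rccd1, and Ndc80 10.7%, most often with 2700099C18Rik. The gene named beside a share is the one that holds the most of these stretches. Of the other genes named above, Ncaph2 shared 30.4%, Nfyc 27.1%, Rbl2 18.6%, Ccne2 15.6%, Fbxo5 15.5%, Pbk 13%, Ncapg 12.5% and Ckap2 10.3%. Their TPM is uncertain to an extent that these shares do not measure, and the use of strand in counting is not given in the sources used here. Nuf2 (2.26%), Spc25 (0%) and Pttg1 (0.618%) share few or no stretches.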

How the data were processed

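The 6 RNA-seq libraries, 3 control and 3 pLV-SEMA6A, were grouped by their labels. Per the study's methods, poly-A mRNA was fragmented and random-primed for Illumina sequencing. The authors deposited TPM values with 2 decimals for each library. The unit was inferred from the values and from RSEM, which the submitters' processing notes name with Bowtie2, HISAT and the build mm39, without versions or roles. The deposited group means were not used. TPM keeps no depth, so no counting interval or detection limit was computed.

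The 12510 of 53700 genes whose mean reached 1 TPM were fitted as log2(TPM + 1) by limma 3.58.1 (R 4.3.3) with its trend setting and a group term, and Benjamini-Hochberg adjustment was applied over all of them. The pseudocount of 1 understates the change of low genes. With 3 libraries per group, exact permutation reaches p = 0.1 at best. The members and gene lists were chosen with earlier results of these data known, and no list test was run.

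Values in each library are given for DEGs, for the members with the largest rise and the largest fall in each role, and for Cdk1, Ccnb1, Plk1, Aurkb, Top2a and Mki67. Of each other list, the 2 largest absolute log2 fold changes past an adjusted p of 0.05 are given. Ccnb2, Cdc20, Spc25, Espl1 and Mad2l1 were described in addition after their values were seen. So were Nfya and Nfyb, which were not followed through the alternative analyses. Promoter windows came from RefSeq on GRCm38.p6, and shared stretches of 31 bases were counted in the transcripts of GENCODE M21. Neither build is that of the processing notes, so both were matched by gene symbol or identifier only. The alternatives were all listed genes above 0 without a minimum, a pseudocount of 0.1, a mean of at least 10 TPM, median centring, quantile normalization, limma without trend, the replicate block, and leaving out each library in turn.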

Additional observations from a re-analysis of the deposited data

How the results depend on the processing

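Of the 23 members called, 16 stayed past the threshold in all 13 alternatives, and none of the 23 changed direction. The other 7 (Plk1, Plk4, Aurka, Tpx2, Bub1, Cdca8 and Kif20a) lost their calls in at least 1 fit that left out a library, and Plk4 and Bub1 also with median centring. A fit that leaves out a library also holds fewer libraries, and the cause of these changes was not tested. The number of members that were lower was 1 without a filter on low values, with median centring, with limma without trend and with the replicate block, and 1 to 3 on leaving out a library. The number of members that were higher DEGs was 9 with median centring and 2 to 6 on leaving out a library. The count of 2 was without pLV-SEMA6A replicate 3, where Spc24 and Kif4 were at 0.45 on the log2 scale. Higher DEGs among all genes tested numbered 1002 with median centring and 616 to 631 on leaving out a library, beside 640 in the main fit. The median member log2 fold change was 0.198 with median centring and 0.154 with quantile normalization, beside 0.03 and 0.02 over all genes tested. In the main fit these medians were 0.10 for the members and −0.06 for all genes tested. Of the other mitosis genes, 13 were lower with median centring, beside 19.8% of all genes tested, and 18 with quantile normalization, beside 21.6%. On leaving out a library 17 to 21 were lower, beside 23.4% to 25.1%, the 17 without control replicate 3. DEGs among all genes numbered 1167 at a mean of at least 10 TPM, where 8184 genes were tested, beside 1987. The direction of 12 members turned in at least 1 alternative, none of them among the 23. With quantile normalization Cdk1 was at −0.0815, Cdc25c at 0.0321 and Kif20b at 0.00883, and with median centring Cdc25b was at 0.0298, Cdc25c at 0.0654, Aurkb at 0.00080, Kif20b at 0.0288, Kif22 at 0.0329 and Ect2 at 0.00392. On leaving out a library, Cdk1 ranged from −0.0178 to 0.0551, Bub1b from −0.00964 to 0.0209, Mad2l1 from −0.0359 to 0.0212, Ttk from −0.00614 to 0.0664, Kif14 from −0.132 to 0.0952, Kif20b from −0.193 to 0.0184 and Hmmr from −0.0288 to 0.0373. The replicate numbers are in the labels, but the deviations of same-numbered libraries from the group averages were not alike (mean correlation −0.06, and 0.03 for other numbers). With the replicate block, 19 members were higher and 1 lower, beside 17.3% and 24.5% of all genes tested. In that fit 1924 genes were DEGs, and 3 member calls were lost (Plk4, Aurka and Bub1). The depth behind the values is unknown.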

Other observations

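Stag2, a cohesin subunit, was listed at 0 to 0.03 TPM in every library of both groups, while the cohesin ring gene Smc3 was at 37.4 to 60.1 TPM. Both values are given without explanation, and a low listed value can be a failed estimate. Foxm1, the transcription factor of late cell cycle genes, was lower in pLV-SEMA6A. It was at 31.3, 30.3 and 31.2 TPM in control and 26.6, 29.0 and 26.4 TPM in pLV-SEMA6A. Its log2 fold change was −0.17 (SE 0.05, limma adjusted p = 0.0267). Mybl2, which encodes the B-MYB partner of MuvB, was higher, from 10.7 ± 0.505 to 13.9 ± 0.985 TPM (SD, n = 3 each), and its log2 fold change was 0.35. Cdkn1a, which encodes the CDK inhibitor p21, was also higher, from 27.8 ± 0.557 to 45.997 ± 1.01 TPM (SD, n = 3 each), and its log2 fold change was 0.71. These 4 genes were chosen after their values were seen, and the relation of any of them to the mitosis and spindle genes was not tested. None of the 4 was followed through the alternative analyses.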
